A study of Mus musculus with 12 samples.

Results

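The genes described here are 47 genes of the lysosome, 10 for proteases, 11 for glycosidases, 6 for sulfatases and the acetyltransferase Hgsnat, 5 for lipid enzymes, 4 for activators and carriers, and 11 for membrane proteins. They were taken by gene name from a table of 54532 genes. Their RNA was measured in MC38 cells, an established line of mouse colorectal cancer, with 4 groups of 3 libraries each. The groups were control cultures, cultures given the tyrosine kinase inhibitor nintedanib at 3 µM, cultures given X-rays at 8 Gy, and cultures given both. The labels give 24 h for the treatments and neither a time nor a vehicle for the controls. Levels are FPKM, fragments scaled to gene length and to a depth factor of each library. The lengths are those of the gene models, so rankings of genes by FPKM depend on them. A gene was tested if it reached 1 FPKM in at least 3 libraries, which 13012 genes did. Fold changes are differences of log2(FPKM + 1), and a gene is said to have risen or fallen where limma's Benjamini-Hochberg adjusted p over those 13012 genes was below 0.05.

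The lysosome is the acidic compartment in which cells break down proteins, glycans, lipids and nucleic acids that reach it by endocytosis, phagocytosis and autophagy. Its soluble hydrolases are made in the endoplasmic reticulum and mostly sorted by mannose 6-phosphate tags, while heavily glycosylated membrane proteins line the organelle and carry the products out. Many of these genes share promoter elements, named CLEAR elements, that contain the E-box CACGTG and are bound by the transcription factors TFEB, TFE3 and MITF.

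Of the 47 genes, 45 passed the filter on low values. Ctsc, which encodes the dipeptidyl peptidase that activates granule proteases of immune cells, had 3 fragments in all 12 libraries together. Ctsf, a cysteine cathepsin, had 24 fragments in 6 libraries and never exceeded 0.258 FPKM. Neither was tested. Of the tested members, Galc was lowest at 0.985 FPKM in 1 library, and the other 44 stayed at 1 FPKM or more in every library. Lamp1, Psap, Ctsz, Laptm4a and Grn together made up 50.7% of the summed FPKM of the 47 genes in controls.

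Libraries held 16103528 to 18196615 fragments. The library nintedanib 3 stood apart: genes shorter than 200 bases took 0.0291% of its fragments against 0.101% to 0.212% in the other 11, and mitochondrial genes 2.12% against 1.23% to 1.64%. The labelled cell type was checked against marker genes. Epcam was listed at 0 in every library and 6 of 8 epithelial markers stayed below 1 FPKM, while all 6 mesenchymal markers were detected. Of the epithelial markers, Cdh1 stood at 4.12 to 8.73 FPKM and Krt19 at 0.623 to 4.81, both with their highest values in combination libraries. Because cultures were measured in bulk, fewer cells of a type and less RNA per cell cannot be told apart.

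Promoter windows from RefSeq (GRCm38.p6), from 250 bases before to 50 bases after each start, were found for 41 of the 47 members, and not for Asah1, Ctsb, Ctsh, Galns, Hgsnat and Npc1. The E-box core CACGTG, which reads the same on both strands, stood in the windows of 14 of these 41 genes (34.1%), against 8.09% of the 27025 genes in the promoter table and 12.1% of the 8949 of them that were tested. By window, 7.15% of all 32851 held it. The longer form TCACGTG, which contains the core and was searched on both strands, stood in 12 of the 41 (29.3%), against 4.29% and 7.24% of those genes. The related form TCATGTG, also searched on both strands and read as CACATGA on the opposite one, stood in 7 of the 41 (17.1%), against 4.31% and 2.53%. A match is a description of these letters and not evidence that a factor binds there. The sites below are shown because a larger share of the members than of all genes held these letters. They are printed on the strand of the gene, with the motif in capitals and the distance from the RefSeq start of the window to the first base of the motif. That start is not always the start of the gene in the deposited table. Sites with a negative distance can therefore lie inside the deposited gene, as in Ctsd, Ctsa and Cln3. The run of 3 cores of Lamp1 and the sites of Dpp7, Gaa, Glb1 and Grn lie outside annotated exons of GENCODE M21, and the others overlap an exon. The first and second hold the 4 cores before the start of Lamp1, and the next 11 are 1 TCACGTG site from each other gene that holds that form.
Lamp1, 3 cores, chr8:13159088-13159150, plus strand: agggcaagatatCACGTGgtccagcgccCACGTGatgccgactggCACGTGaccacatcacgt
Lamp1, -15, chr8:13159134-13159163, plus strand: acgtgaccacatCACGTGcggaacggagcc
Ctsd, -98, chr7:142387908-142387937, minus strand: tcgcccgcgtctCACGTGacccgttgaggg
Dpp7, -73, chr2:25356388-25356417, minus strand: ccgccagactatCACGTGatgctgccccgc
Ctsa, -12, chr2:164833749-164833778, plus strand: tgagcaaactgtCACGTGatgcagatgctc
Gaa, -140, chr11:119267811-119267840, plus strand: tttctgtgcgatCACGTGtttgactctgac
Gla, -194, chrX:134601182-134601211, minus strand: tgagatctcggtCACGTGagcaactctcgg
Glb1, -48, chr9:114401018-114401047, plus strand: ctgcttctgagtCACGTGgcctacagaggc
Naglu, -73, chr11:101070009-101070038, plus strand: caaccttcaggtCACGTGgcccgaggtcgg
Arsa, -16, chr15:89477423-89477452, minus strand: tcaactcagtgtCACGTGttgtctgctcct
Sgsh, -29, chr11:119355522-119355551, minus strand: gggcctgccgtgCACGTGaccgtggggagc
Mcoln1, -45, chr8:3500462-3500491, plus strand: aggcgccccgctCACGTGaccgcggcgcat
Cln3, -121, chr7:126583340-126583369, minus strand: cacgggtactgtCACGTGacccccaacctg
For comparison, Ctsl held the core without the flanking T of the longer form, and Grn, Tpp1, Ppt1 and Scarb2 held the related form with no core.
Ctsl, -236, chr13:64370739-64370768, minus strand: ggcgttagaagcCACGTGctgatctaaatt
Grn, -210, chr11:102430285-102430314, plus strand: tgattctctaatCACATGAtccctagaaat
Tpp1, 5, chr7:105752214-105752243, minus strand: gccagaccatgcTCATGTGacttatcacat
Ppt1, 14, chr4:122836228-122836257, plus strand: cagtccccgcggTCATGTGattgctaagat
Scarb2, -32, chr5:92505672-92505701, minus strand: gccgctgcagggCACATGActgaaggcctc

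With nintedanib alone, 40 of the 45 tested genes rose and 0 fell. Over all genes tested, 19.7% rose and 22.0% fell. The count of 0 lower members was also 0 at an unadjusted p under 0.05 by limma, and 0 by voom, which called 41 higher. At that unadjusted p limma gave 26.0% of all genes lower. The members' median log2 fold change was 0.68, against -0.02 over all genes. At least 2-fold on this scale were 7 members, against 1.64% of all genes: Gpnmb, Neu1, Cd68, Lipa, Ctsd, Manba and Ctns. In 41 genes all 3 nintedanib values lay above all 3 control values, which held for 24.5% of genes tested. Genes that rose came from all 6 role classes. How called genes divide between higher and lower depended on scaling: 47.2% of all called genes were higher as deposited, 60.0% after rescaling each library to a common FPKM sum and 55.9% by voom.

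The 47 genes summed to 1808 ± 63.0 FPKM in controls and 2924 ± 128 with nintedanib (mean ± SD, n = 3), a ratio of 1.62, or 1.73 after rescaling to a common sum. Their share of all fragments was 0.604% to 0.631% in controls and 0.991% to 1.12% with nintedanib. By role class the ratio of summed FPKM was 1.80 for lipid enzymes, 1.71 for glycosidases, 1.64 for membrane proteins, 1.59 for proteases, 1.55 for activators and carriers and 1.42 for sulfatases with Hgsnat. Every class sum was higher in each nintedanib library than in any control library. Differences between the classes were not tested.

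**Figure D1:**
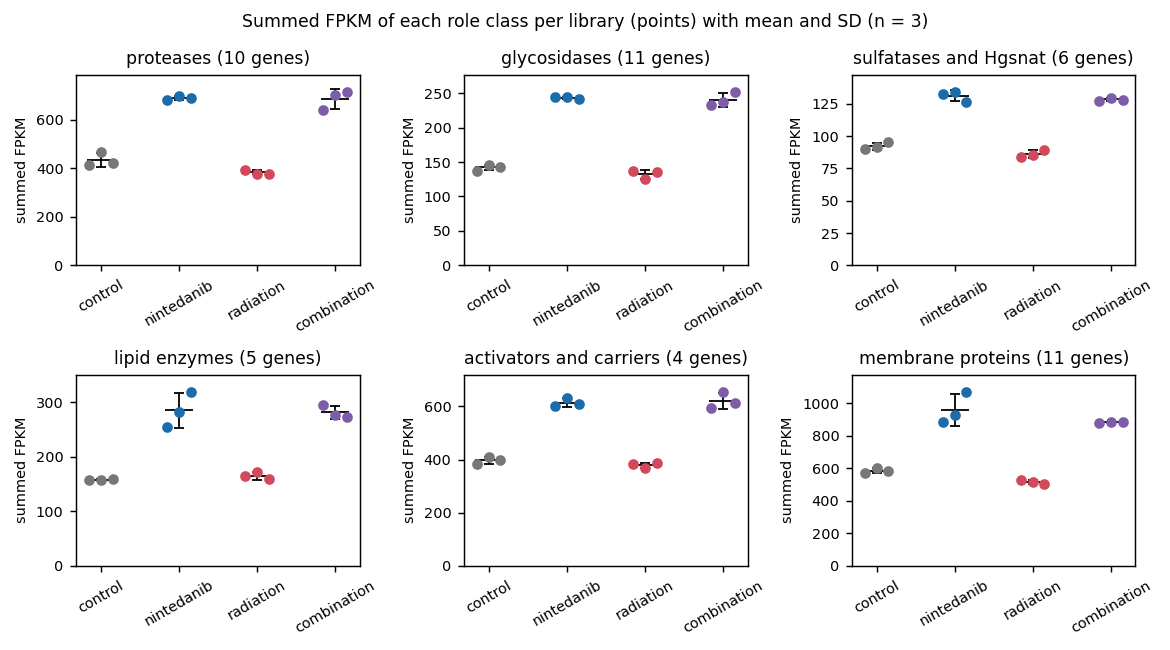
Summed FPKM of each role class (vertical axes, from 0) in the 12 libraries, grouped on the horizontal axis by treatment. Points are libraries, and dashes with error bars are group means with SD (n = 3). In every class the nintedanib and combination libraries lie above the control and irradiated libraries.

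**Figure D2:**
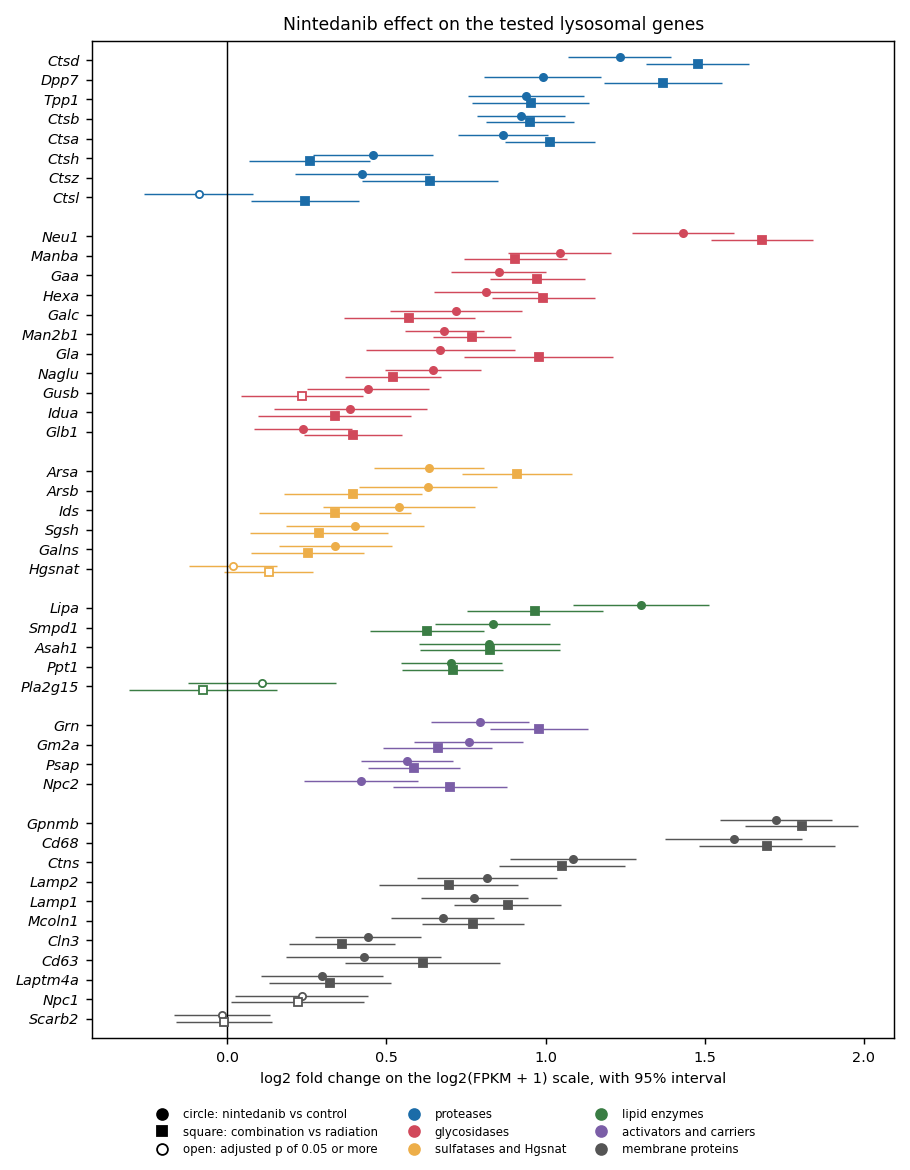
Log2 fold change on the log2(FPKM + 1) scale with its 95% interval (horizontal axis) for 45 tested members by role class, for nintedanib against control (circles) and the combination against X-rays (squares). Filled symbols passed the threshold. Gpnmb lies farthest to the right in both, at 1.72 and 1.80, and Hgsnat, Scarb2 and Pla2g15 lie near 0.

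Among the proteases, 7 of 8 tested genes rose with nintedanib, with a median log2 fold change of 0.90. Ctsd encodes cathepsin D, the main aspartic protease of the lysosome (chr7:142375911-142388038, minus strand, in the GRCm38 coordinates of the deposited table, as for the genes that follow). It stood at 64.6, 72.5 and 69.8 FPKM in controls and 161, 164 and 165 with nintedanib. In irradiated libraries it stood at 54.5, 51.9 and 58.9, and at 144, 158 and 164 with both. The 3 irradiated values were the lowest, the 3 controls came next without overlap, and the nintedanib and combination values overlapped far above them. The mean level of Ctsd was 2.37-fold that of controls with nintedanib (log2 fold change 1.23, SE 0.0738, adjusted p = 6.72e-07). A second annotated gene sharing exon bases with Ctsd on its strand, Gm49369, was listed at 0 in every library.

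Dpp7 encodes dipeptidyl peptidase 2, a serine exopeptidase that removes dipeptides after proline (chr2:25352276-25356359, minus strand). It stood at 7.49, 8.68 and 7.44 FPKM in controls and 16.8, 16.9 and 16.1 with nintedanib. Irradiated libraries gave 4.42, 4.22 and 3.75 and combination libraries 11.3, 11.8 and 13.7. These 4 groups did not overlap, in the order irradiated, control, combination and nintedanib. The nintedanib difference was log2 fold change 0.99, SE 0.0841, adjusted p = 6.11e-06. Ctsz encodes cathepsin Z, a cysteine carboxypeptidase (chr2:174427493-174439039, minus strand). It had the highest mean FPKM of the proteases, with 150.1, 188 and 158 FPKM in controls and 230.1, 226 and 208 with nintedanib. By fragments over all 12 libraries, Ctsl (100871) and Ctsb (89161) exceeded Ctsz (59707). With X-rays Ctsz stood at 159.8, 153 and 149.5, and with both at 216, 252 and 254. Irradiated and control values overlapped, and so did the values of the drug groups, with both drug groups above the others. For nintedanib against control the difference was log2 fold change 0.42, SE 0.0967, adjusted p = 0.00454.

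Tpp1, the tripeptidyl peptidase lost in a childhood form of neuronal ceroid lipofuscinosis, rose by 0.94 on the log2 scale, and Ctsh, a cathepsin with aminopeptidase activity, by 0.46. Ctsb, the cysteine cathepsin B, rose from 48.2 ± 0.683 to 92.4 ± 6.84 FPKM (mean ± SD, n = 3, log2 0.92). It shares 774 of its 6051 exon bases with Fdft1 on the opposite strand, which stood at 15.2 FPKM in controls and 45.5 with nintedanib, and the part of that overlap in the Ctsb value was not tested. Ctsa, cathepsin A, which also protects Neu1 and Glb1 in a complex, rose by 0.87. It shares 495 of its 4715 exon bases with Pltp, at 47.8 FPKM in controls and 62.1 with nintedanib. Ctsl, the cysteine cathepsin L, did not pass the test, with 74.0 ± 5.27 FPKM in controls and 69.3 ± 2.46 with nintedanib (log2 fold change -0.09, SE 0.0777, adjusted p = 0.383, 95% interval -0.26 to 0.08). It was the only tested protease whose drug and control values overlapped.

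All 11 glycosidase genes rose with nintedanib, with a median log2 fold change of 0.68. Neu1 encodes the sialidase that removes terminal sialic acids from glycans (chr17:34931253-34935953, plus strand). Its levels were 4.45, 5.02 and 4.82 FPKM in controls and 14.0, 14.4 and 15.2 with nintedanib. Irradiation gave 3.85, 3.77 and 3.88 and the combination 13.2, 14.3 and 16.1. Irradiated values were lowest and did not overlap the controls, and both drug groups lay far above and overlapped. The mean level of Neu1 with nintedanib was 3.05-fold that of controls (log2 fold change 1.43, SE 0.0728, adjusted p = 2.39e-07). Manba encodes beta-mannosidase, which acts late in the breakdown of N-glycans (chr3:135485611-135571404, plus strand). Its levels were 4.54, 4.65 and 4.68 FPKM in controls and 9.49, 11.4 and 10.9 with nintedanib, then 4.93, 5.47 and 4.93 in irradiated and 11.1, 10.5 and 9.81 in combination libraries. The drug groups overlapped each other and lay above all values without the drug, and the nintedanib difference was log2 fold change 1.04, SE 0.0742, adjusted p = 1.73e-06.

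Hexa, the alpha subunit of beta-hexosaminidase, whose loss causes Tay-Sachs disease, had the highest mean FPKM of the glycosidases (chr9:59539540-59565109, plus strand). Over all 12 libraries Hexa held 20748 fragments, fewer than Gaa (38804) and Man2b1 (29915). It stood at 35.2, 38.3 and 37.2 FPKM in controls, 65.7, 66.0 and 65.0 with nintedanib, 34.4, 28.1 and 30.4 in irradiated and 60.4, 62.1 and 64.9 in combination libraries. No 2 groups overlapped, and the order was irradiated, control, combination and nintedanib. The difference for nintedanib was log2 fold change 0.81, SE 0.074, adjusted p = 9.23e-06. Of the other members, Galc (galactosylceramidase) rose by 0.72, Gaa (acid alpha-glucosidase, which degrades glycogen) by 0.85, Gla (alpha-galactosidase A) by 0.67 and Man2b1 (an alpha-mannosidase) by 0.68. Naglu, which degrades heparan sulfate, rose by 0.65 and Gusb (beta-glucuronidase) by 0.44. The smallest of the 11 changes was in Glb1 (beta-galactosidase), at 0.24 (adjusted p = 0.0183). Glb1 shares 165 of its 3008 exon bases with Tmppe on its own strand, at 3.30 FPKM in controls and 4.26 with nintedanib. Idua, which removes iduronic acid from heparan and dermatan sulfate, was low throughout, at 1.87 ± 0.110 FPKM in controls and 2.79 ± 0.579 with nintedanib, with a difference of 0.39 (adjusted p = 0.0149).

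Of the 5 sulfatases and Hgsnat, 5 of 6 genes rose, with a median log2 fold change of 0.47. Arsa encodes arylsulfatase A, which removes sulfate from sulfatide (chr15:89472476-89477425, minus strand). It stood at 43.0, 46.6 and 45.0 FPKM in controls and 71.4, 75.7 and 63.6 with nintedanib. Irradiated libraries gave 32.8, 32.6 and 36.7 and combination libraries 61.3, 66.6 and 66.4. Irradiated values lay below all controls, and the overlapping drug groups lay above. The difference for nintedanib was log2 fold change 0.63, SE 0.0783, adjusted p = 7.81e-05. An antisense gene, C230037L18Rik, shares 690 of the 3680 exon bases of Arsa and stood at 1.24 FPKM in controls and 1.18 with nintedanib. Arsb, arylsulfatase B, acts on dermatan and chondroitin sulfate (chr13:93771630-93943016, plus strand).

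Arsb stood at 4.59, 4.29 and 4.47 FPKM in controls and 8.30, 6.91 and 7.16 with nintedanib, and at 4.75, 5.63 and 5.12 after irradiation and 7.85, 5.98 and 7.59 with both. Every drug-treated value exceeded every value without the drug, and the difference for nintedanib was log2 fold change 0.63, SE 0.0984, adjusted p = 0.000399. Ids, which starts the breakdown of heparan and dermatan sulfate, rose by 0.54, Sgsh, the heparan N-sulfatase, by 0.40 and Galns, which acts on keratan sulfate, by 0.34. Hgsnat, the membrane enzyme that acetylates heparan sulfate fragments, gave 17.7 ± 0.693 FPKM in controls and 17.9 ± 0.878 with nintedanib and did not pass the test (log2 fold change 0.02, SE 0.0633, adjusted p = 0.844). Of the enzymes that degrade heparan sulfate, Naglu, Sgsh, Ids and Idua were therefore called higher and Hgsnat was not, and the difference between these genes was not tested.

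Among the lipid enzymes, 4 of 5 rose, with a median log2 fold change of 0.82. Lipa encodes lysosomal acid lipase, which releases cholesterol and fatty acids from the esters delivered by lipoproteins (chr19:34492318-34527474, minus strand). It stood at 14.4, 14.9 and 15.5 FPKM in controls and 33.1, 39.6 and 42.7 with nintedanib. Irradiated libraries gave 15.2, 17.3 and 14.5 and combination libraries 34.0, 31.1 and 29.6. Irradiated and control values overlapped at the lower level, and the drug groups overlapped at the higher. The difference for nintedanib was log2 fold change 1.30, SE 0.0969, adjusted p = 2.31e-06. Smpd1 encodes acid sphingomyelinase (chr7:105554360-105558389, plus strand) and stood at 9.57, 10.3 and 11.2 FPKM in controls and 20.4, 18.4 and 18.9 with nintedanib, 13.1, 10.9 and 11.5 after irradiation and 17.6, 19.3 and 19.4 with both. Here too the groups fell into a drug-treated pair and a pair without the drug (log2 fold change 0.83, SE 0.082, adjusted p = 1.56e-05).

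Asah1, acid ceramidase, which splits ceramide into sphingosine and a fatty acid, had the highest mean FPKM of the lipid enzymes (chr8:41340197-41374773, minus strand). It stood at 105, 103 and 103 FPKM in controls, 160.2, 182 and 214 with nintedanib, 105, 114 and 99.0 after irradiation and 202, 184 and 181 with both. The drug-treated values were spread more widely than the controls but did not reach down to them (log2 fold change 0.82, SE 0.1, adjusted p = 7.14e-05). Ppt1, which removes palmitate from proteins, rose by 0.70, and shares 129 exon bases with Cap1 on the opposite strand, at 105 FPKM in controls and 121 with nintedanib. Pla2g15, the lysosomal phospholipase A2, gave 11.4 ± 0.810 FPKM in controls and 12.4 ± 1.59 with nintedanib and did not pass the test (log2 fold change 0.11, SE 0.106, adjusted p = 0.443).

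**Figure D3:**
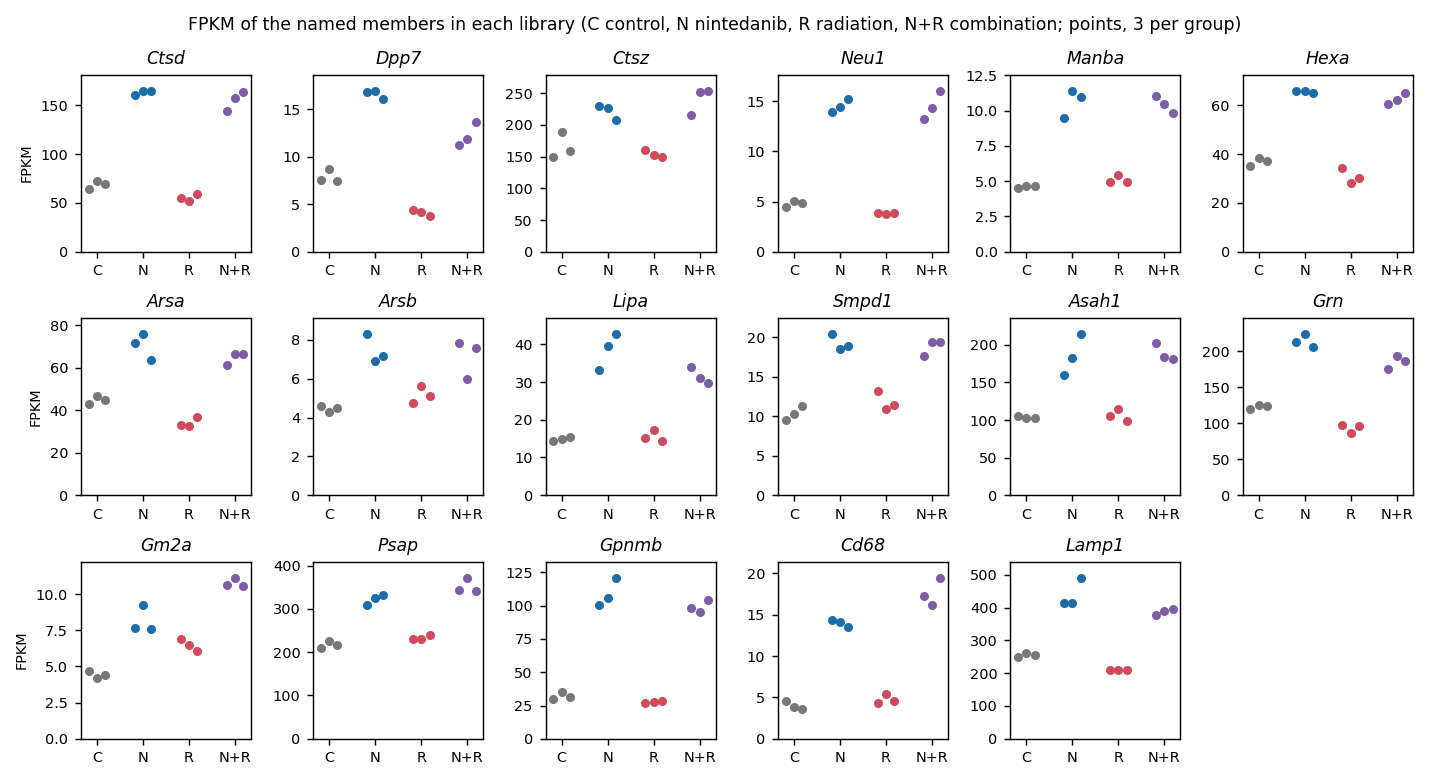
FPKM (vertical axes, from 0) in each of the 12 libraries for the members given with all their values, by treatment group on the horizontal axis. Points are libraries, with C for control, N for nintedanib, R for X-rays and N+R for both. In every panel the libraries given nintedanib, alone or with X-rays, lie above the controls. In Gm2a, Psap, Manba and Arsb all irradiated values lie above all controls. In Dpp7, Ctsd, Neu1, Gpnmb, Hexa, Arsa, Grn and Lamp1 they all lie below.

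All 4 activators and carriers rose, with a median log2 fold change of 0.66. Grn encodes progranulin, the precursor of granulins that act in the lysosome (chr11:102430315-102437048, plus strand). It stood at 119, 126 and 124 FPKM in controls and 212, 224 and 206 with nintedanib. Irradiated libraries gave 97.7, 86.9 and 95.6 and combination libraries 175, 194 and 186. The 4 groups did not overlap and followed the order irradiated, control, combination and nintedanib. The difference for nintedanib was log2 fold change 0.80, SE 0.0699, adjusted p = 7.23e-06. Gm2a encodes the activator that presents ganglioside GM2 to hexosaminidase (chr11:55098115-55113029, plus strand).

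Gm2a had another order, with 4.66, 4.17 and 4.38 FPKM in controls, 6.89, 6.46 and 6.04 after irradiation, 7.64, 9.26 and 7.60 with nintedanib and 10.7, 11.1 and 10.6 with both. These 4 groups did not overlap either, and each treatment stood above control (nintedanib log2 fold change 0.76, SE 0.0782, adjusted p = 2.21e-05). Psap encodes prosaposin, the precursor of the saposins that activate sphingolipid enzymes (chr10:60277627-60302597, plus strand). It stood at 210.1, 225 and 218 FPKM in controls, 309.8, 326 and 332 with nintedanib, 232, 230.2 and 239.8 after irradiation and 343, 372 and 341 with both. All 3 irradiated values lay slightly above the controls, and the combination values lay above those of nintedanib alone (nintedanib log2 fold change 0.57, SE 0.0662, adjusted p = 5.42e-05). Npc2, which hands cholesterol to Npc1, rose by 0.42.

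Of the membrane proteins, 9 of 11 rose, with a median log2 fold change of 0.68 and the widest range of any class, from -0.02 to 1.72. Gpnmb encodes a glycoprotein of melanosomes and lysosomes that is also made by macrophages and osteoclasts (chr6:49036546-49070929, plus strand). It stood at 30.2, 34.8 and 31.7 FPKM in controls and 101, 106 and 121 with nintedanib. Irradiated libraries gave 27.1, 27.6 and 28.5 and combination libraries 98.2, 95.2 and 105. Irradiated values lay just below the controls without overlap, and the overlapping drug groups stood far above both. With nintedanib the mean level of Gpnmb was 3.38-fold that of controls (log2 fold change 1.72, SE 0.0806, adjusted p = 1.45e-07), and the fold change ranked 25 among all genes tested.

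Cd68 encodes macrosialin, a LAMP family protein best known from macrophages (chr11:69664213-69666153, minus strand). It stood at 4.60, 3.86 and 3.55 FPKM in controls, 14.4, 14.1 and 13.6 with nintedanib, 4.28, 5.41 and 4.60 after irradiation and 17.3, 16.2 and 19.5 with both. The combination values were the highest and did not overlap those of nintedanib alone, while irradiated and control values overlapped. The nintedanib difference was log2 fold change 1.59, SE 0.0974, adjusted p = 7.42e-07. Because Gpnmb and Cd68 are also markers of other cell types, those types' genes are given beside them. Of 12 leukocyte and macrophage genes, 9 stayed below 1 FPKM in every library, Tyrobp was listed at 0 throughout, and Ptprc, the leukocyte antigen CD45, did not exceed 0.0292 FPKM. Some of the low genes were higher with the drug, and Cd74 was lower with nintedanib alone. Lyz2, lysozyme, stood at 0.183, 0.132 and 0.308 FPKM in controls, 0.767, 0.557 and 1.16 with nintedanib, 0.650, 0.407 and 0.853 after irradiation and 1.56, 1.19 and 0.601 with both. Csf1r, a macrophage growth factor receptor, stood at 0.0123, 0.0473 and 0.0356 FPKM in controls and 0.0375, 0.0876 and 0.0230 after irradiation. With nintedanib Csf1r stood at 0.161, 0.0807 and 0.134, and with both at 0.239, 0.218 and 0.174. In Lyz2 and Csf1r the control values lay below all values of the drug groups. Cd74 went the other way with nintedanib, at 0.358, 0.400 and 0.194 FPKM against 0.983, 0.738 and 0.698 in controls. Cd74 stood at 1.95, 1.94 and 2.31 after irradiation and 0.316, 1.03 and 0.521 with both. The part of cells of these types in the values of Cd68 and Gpnmb was not tested. The 12 summed to 9.13 to 10.2 FPKM in controls, 9.80 to 10.2 with nintedanib, 8.70 to 11.9 after irradiation and 10.5 to 13.0 with both, mostly from Cd14. All 4 melanocyte and all 5 osteoclast genes were below 1 FPKM in every library.

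Lamp1, the highest of all 47 genes by mean FPKM, encodes a main glycoprotein of the lysosomal membrane (chr8:13159161-13175338, plus strand). It stood at 249, 263 and 256 FPKM in controls, 415, 413 and 491 with nintedanib, 209.7, 211 and 211 after irradiation and 379, 390.2 and 396 with both. No groups overlapped, the irradiated values were lowest, and the highest value was in the library nintedanib 3. The difference for nintedanib was log2 fold change 0.78, SE 0.0763, adjusted p = 1.56e-05. Lamp2, its relative needed for chaperone-mediated autophagy, rose by 0.82, Ctns, the cystine exporter, by 1.09 and Mcoln1, the calcium channel mucolipin 1, by 0.68. The tetraspanin Cd63 rose by 0.43, Cln3, a membrane protein mutated in juvenile neuronal ceroid lipofuscinosis, by 0.44 and Laptm4a by 0.30. Cln3 shares 442 of its 5781 exon bases with Apobr on the opposite strand, at 3.47 FPKM in controls and 3.96 with nintedanib. The part of that overlap in the Cln3 value was not tested. Scarb2, a membrane protein that acts as a sorting receptor, gave 20.2 ± 1.04 FPKM in controls and 19.95 ± 1.15 with nintedanib (log2 fold change -0.02, SE 0.0681, adjusted p = 0.871). Npc1, the cholesterol exporter, gave 6.81 ± 0.364 and 8.21 ± 0.876 FPKM (log2 fold change 0.23, SE 0.095, adjusted p = 0.0693). Neither passed the test.

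Without the library nintedanib 3, 38 members rose and 0 fell, while 2375 of the 13012 genes rose and 2663 fell. Of the members with a promoter window, 12 of 13 tested genes with CACGTG rose (median log2 fold change 0.67), and so did 24 of 26 without it (median 0.71). Over all genes 19.7% rose in the same fit of all libraries. The gene with the core that did not rise was Ctsl, the only tested one of these without the flanking T. For the combination against X-rays, 13 of 13 genes with CACGTG rose, Ctsl included, and 23 of 26 without it, against 17.2% of all genes. Whether the flanking T matters was not tested. Of the 4 genes with TCATGTG and no core, Grn, Tpp1 and Ppt1 rose, and Scarb2 did not pass the test.

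Other genes of the pathway had smaller median differences than the members. Over all genes tested, 19.7% rose and 22.0% fell with nintedanib, with a median of -0.02. Of 28 other lysosomal hydrolases 21 were tested, and 14 rose and 0 fell with nintedanib (median log2 fold change 0.46). Among these, Dnase2a, the acid DNase, rose from 5.03 to 10.1 FPKM (0.88, adjusted p = 4.35e-06), and Pld3, a lysosomal exonuclease, from 11.5 to 21.7 FPKM (0.86, adjusted p = 4.25e-06). Of 21 tested genes for other lysosomal membrane and transport proteins, 16 rose and 0 fell (median 0.44), including Glmp (0.98) and the amino acid transporter Slc36a1 (0.87). In both lists 0 genes were lower at an unadjusted p under 0.05 by limma as well, against 26.0% of all genes. By voom 0 were lower, and 15 and 18 were called higher. Of 12 tested genes for enzyme sorting and maturation 6 rose (median 0.34). They included Gga2, a sorting adaptor (0.93), the mannose 6-phosphate receptor Igf2r (0.68), Gnptg, a subunit of the enzyme that makes the tag (0.64), and Sumf1, which activates sulfatases (0.54). The 1 gene of this list that fell was Gga1 (-0.45, adjusted p = 0.0125).

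The RNAs of the transcription factors that bind CLEAR elements were looked at as well. Tfe3 fell from 13.2 to 8.87 FPKM with nintedanib (-0.53, adjusted p = 0.000164). Tfeb was low and rose from 1.56 to 2.08 FPKM (0.27, adjusted p = 0.0394). Mitf stood at 0.975 and 1.18 FPKM (0.14, adjusted p = 0.352). These are RNA levels and say nothing of the activity or place of the proteins in the cell.

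In irradiated cells, where the combination was compared with X-rays alone, 40 of 45 members again rose and 0 fell, with a median log2 fold change of 0.70. Over all genes 17.2% rose and 17.3% fell. At least 2-fold higher were 7 members, against 1.57% of all genes. At an unadjusted p under 0.05, limma gave 42 members higher and 0 lower, against 21.7% and 22.2% of all genes. Voom's adjusted test gave 41 and 0 members. Of the members, 39 rose in both drug comparisons, which share no library. Over all genes at most 17.2% can have done so, the share that rose in the combination against X-rays. Gusb passed in the comparison without X-rays and not in that with them, and Ctsl the reverse. In neither gene did the difference between the 2 effects pass its own test (adjusted p = 0.476 and 0.282). Ctsl stood at 75.8, 66.5 and 65.0 FPKM after irradiation and 77.8, 84.2 and 83.7 with both, without overlap (log2 fold change 0.24, SE 0.0777, adjusted p = 0.0308). Hgsnat, Pla2g15, Scarb2 and Npc1 passed in neither comparison.

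The members kept much the same order of effect in both comparisons. Over the 45 genes, the effects without and with X-rays had a Pearson r of 0.919 and a Spearman rho of 0.892, against 0.751 and 0.713 over all 13012 genes. These points are genes of the same libraries and not independent replicates. Gpnmb changed by 1.72 without and 1.80 with X-rays, Neu1 by 1.43 and 1.68, Ctsd by 1.23 and 1.48, and Dpp7 by 0.99 and 1.37.

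The test of the difference between these effects, the interaction, called 0 of 45 members and 1 of the 13012 genes (0.00769%). At an unadjusted p under 0.05, limma gave 6 members with a larger and 1 with a smaller effect in irradiated cells, 13.3% and 2.22%, against 7.85% and 5.10% of all genes. By voom, 0 members were called, and 2 and 2 had an unadjusted p under 0.05. The smallest adjusted p was that of Dpp7, 0.272, with a difference of 0.38 (95% interval 0.12 to 0.64). The interval for Gpnmb was -0.17 to 0.33 and that for Lamp1 -0.13 to 0.34. These intervals are not adjusted for the number of genes. That no member passed the adjusted test does not show that the effects were equal.

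**Figure D4:**
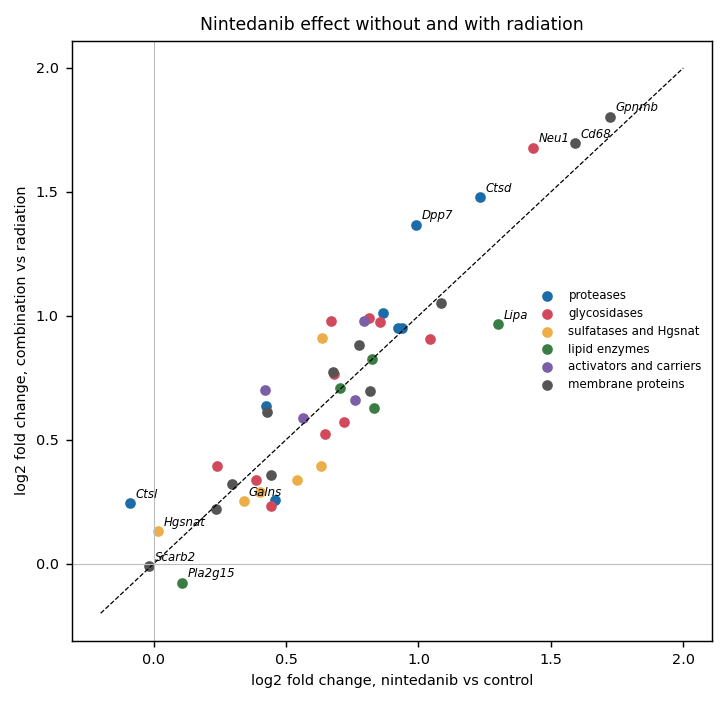
Log2 fold change with nintedanib in unirradiated cells (horizontal axis, nintedanib against control) and in irradiated cells (vertical axis, combination against X-rays), both on the log2(FPKM + 1) scale, for 45 members coloured by role class. The line marks equal change, and the genes lie along it with r = 0.919.

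With X-rays alone, 2 of 45 members rose and 8 fell, with a median log2 fold change of -0.08 against -0.04 over all genes, and 0 changed at least 2-fold. Over all genes 8.04% rose and 9.90% fell, and 0.415% and 0.161% did so at least 2-fold. The members that fell were 3 proteases (Dpp7, Ctsa and Ctsd), 2 glycosidases (Hexa and Neu1), Arsa, Grn and Lamp1. The members that rose were Galns and Gm2a. None of the 5 lipid enzymes passed in either direction. At an unadjusted p under 0.05, limma gave 1 higher and 0 lower of these 5, against 13.4% and 18.8% of all genes. Voom's adjusted test called 0 of the 5.

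Dpp7 had the largest decrease, log2 fold change -0.79, SE 0.0841, adjusted p = 0.000238. Ctsa stood at 38.8, 40.6 and 40.2 FPKM in controls and 27.1, 28.9 and 29.3 after irradiation, without overlap (log2 fold change -0.48, SE 0.0644, adjusted p = 0.000903). Grn (-0.40), Arsa (-0.39), Ctsd (-0.32), Lamp1 (-0.28), Hexa (-0.25) and Neu1 (-0.25) differed by less. Galns, by contrast, stood at 6.21, 5.61 and 6.66 FPKM in controls and 10.5, 9.91 and 10.2 after irradiation (log2 fold change 0.65, SE 0.0803, adjusted p = 0.000553). For Gm2a the difference was log2 fold change 0.47, SE 0.0782, adjusted p = 0.00293.

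These counts depended on scaling. With each library rescaled to a common FPKM sum, 5 members rose and 4 fell, and the share of all called genes that were higher went from 44.8% to 69.7%. By voom 2 members rose and 5 fell, with 59.6% of called genes higher. Dpp7, Ctsa, Grn, Arsa, Galns and Gm2a kept their calls and directions in every one of 21 alternative settings, whereas Hexa lost its call in 12, Lamp1 in 9, Neu1 in 8 and Ctsd in 4. The lower count was 8 with all libraries, 4 without control 2, without control 3 or without radiation 2, and 5 without radiation 3. Summed over all 47 genes, irradiated libraries held 1662 ± 23.0 FPKM against 1808 ± 63.0 in controls (mean ± SD, n = 3), a ratio of 0.919 as deposited and 0.992 after common-sum rescaling. Among tested members with the E-box core, 5 of 13 fell and 0 rose, and among those without it 3 of 26 fell and 1 rose. Over all genes 9.90% fell and 8.04% rose. These calls include Lamp1 and Ctsd with the core and Hexa and Neu1 without it, which were lost in some settings. The difference between members with and without the core was not tested.

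**Figure D5:**
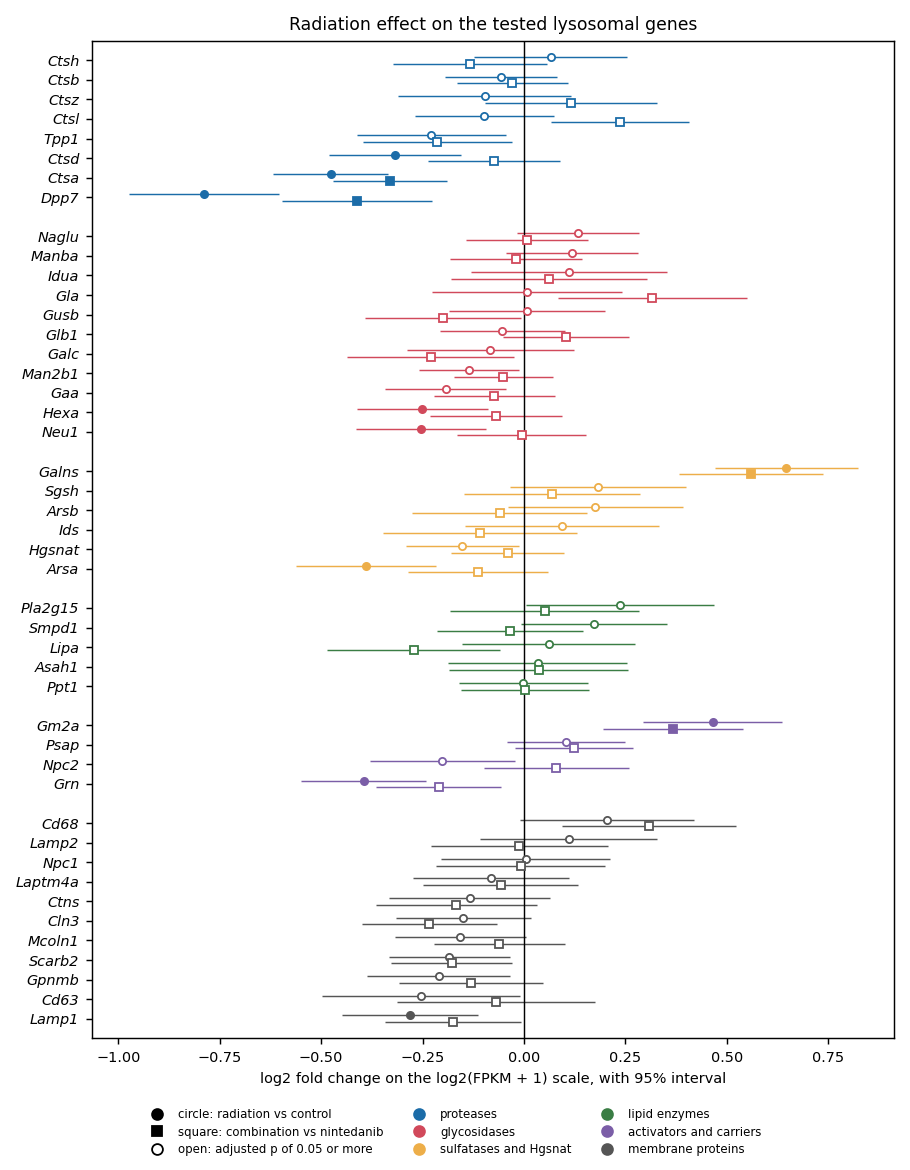
Log2 fold change with X-rays on the log2(FPKM + 1) scale and 95% intervals (horizontal axis) for 45 members by role class, without the drug (circles) and in drug-treated cells (squares). Filled symbols passed the threshold. Dpp7 and Ctsa lie to the left, and Galns and Gm2a to the right, in both.

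In drug-treated cells, where the combination was compared with nintedanib alone, 4 members were called, all among the 10 called with X-rays alone: Galns (0.56) and Gm2a (0.37) rose, and Dpp7 (-0.41) and Ctsa (-0.33) fell. Over all genes 3.17% rose and 2.37% fell. Their adjusted p-values were 0.00348, 0.0223, 0.0189 and 0.016. Galns stood at 8.66, 7.06 and 8.50 FPKM with nintedanib and 11.8, 12.7 and 12.5 with both, and Ctsa at 73.2, 77.2 and 70.5 and 55.2, 58.0 and 62.0. None of the 4 calls held in every setting, and 0 members were called when the 6 libraries of these groups were fitted alone. Without nintedanib 2, or without combination 2, 0 members fell, and without combination 1 the number was 1. Without nintedanib 1, nintedanib 3, combination 2 or combination 3, 1 member rose, Galns.

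Both treatments together, against control, gave 40 members higher and 1 lower, with a median log2 fold change of 0.60. Over all genes 22.3% rose and 25.0% fell. The 47 genes summed to 2840 ± 63.3 FPKM (mean ± SD, n = 3), close to the sum with nintedanib alone. Cd68 had the largest difference, 1.90, followed by Gpnmb at 1.59. Gm2a, which rose with each treatment alone, reached 1.13, and Galns 0.90. For Dpp7, which fell with X-rays and rose with the drug, the difference was 0.58, and for Ctsa 0.54. The lower member was Scarb2, at 20.9, 20.7 and 19.0 FPKM in controls and 17.9, 17.1 and 17.5 with both (log2 fold change -0.19, SE 0.0681, adjusted p = 0.0351). The groups did not overlap, but that call was lost in 7 of 21 settings, namely common-sum rescaling, voom, and leaving out control 1, control 2 or any single combination library.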

How the data were processed

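The authors deposited 1 table of FPKM values, with gene lengths and coordinates for 54532 genes in 12 libraries, per the file headers. Per the submitters' processing notes, reads were placed on GRCm38, also called mm10. Libraries were made from 1.3 µg of total RNA with a SMARTER mRNA kit, per the labels' protocols. How reads were aligned and counted, with which annotation and strand setting, is not given in the sources used here, and fragments of genes that overlap on opposite strands cannot be told apart. The series design says that the experiment was repeated independently 3 times.

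Groups and replicate numbers came from the sample titles. In every library 100% of nonzero FPKM times gene length were whole multiples of 1 step, within 0.01 of a step, which gave the fragments quoted. The depth that this step implies was 0.970 to 0.982 times the summed fragments in control libraries and 1.00 to 1.03 times in the others. The depth factor was therefore not the plain sum of fragments. Fragments carry no molecular identifiers, so depth describes counting error only. Replicates of a group differed by more than sampling noise (chi-square per gene 4.30 to 30.2 in 12 pairs).

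With limma 3.58.1 in R 4.3.3, log2(FPKM + 1) was fitted over all 12 libraries together (empirical Bayes with a trend, two-sided, 8 residual degrees of freedom). Genes of at least 1 FPKM in 3 libraries were tested, and Benjamini-Hochberg adjustment ran over these 13012 genes, once for each of the 6 comparisons, with calls made below 0.05. The scale understates changes of genes at low FPKM. Alternatives were another pseudocount (0.1), other filters, protein-coding genes alone, 2 rescalings, voom on the recovered fragments, a fit of the compared groups alone, a replicate block, and leaving out each library.

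The members, lists, motifs and settings were chosen with earlier results of these data known. Values in every library are given for 17 members: in each role class the 2 with the largest difference for nintedanib and the most abundant, and other values where a result turns on them. Exon overlaps were read from GENCODE M21, where 45 of the 47 members had the deposited coordinates. Some genes of the other lists that this choice would name are not reported here.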

Additional observations from a re-analysis of the deposited data

How the results depend on the processing

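No called member changed direction in any of the 21 alternatives. For nintedanib against control, 37 of the 40 higher calls held in every alternative that tested the gene, and Glb1, Idua and Laptm4a were lost in some. The stricter filter, 5 FPKM in at least 3 libraries, did not test Galc, Idua and Cln3. Their highest values were 2.73, 3.17 and 4.31 FPKM. Counts under that filter are therefore of fewer members. The number of higher members was 37 to 41 under the other settings and 38 to 41 with 1 library left out. Against X-rays, the combination gave 33 to 41 higher members and 34 to 40 with 1 library left out. Against control it gave 37 to 42 and 36 to 40. The number lower for the combination against control was 0 with common-sum rescaling, 0 by voom, and 0 to 1 with 1 library left out. With X-rays alone, 5 members rose after common-sum rescaling. The number that fell was 4 after that rescaling, 5 by voom, 5 with no filter on low values, and 4 to 10 with 1 library left out. For the combination against nintedanib, the number higher was 1 with common-sum rescaling, 0 with only the compared groups fitted and 1 to 2 with 1 library left out. The number lower was 0 with only those groups and 0 to 3 with 1 library left out. The cause of these differences was not tested. Common-sum rescaling moved the median of all genes by -0.12 (log2) for the interaction and by 0.09 or less elsewhere. Scaling to median-of-ratios factors left the deposited values nearly as they were, since they already had equal factors.

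Same-numbered libraries did not stand out as pairs. Their deviations from the group means correlated at -0.30 to 0.20, over 0.1 in 3 of 18 pairs, and 3 of 12 libraries were closest to their own number. With 3 libraries per group the deviations within a group depend on each other, so these correlations cannot show that pairing was absent. With the replicate block, 40 members were higher with nintedanib, 2 higher and 7 lower with X-rays, 37 higher and 1 lower with both against control, and 36 higher for the combination against X-rays.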

Other observations

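Ctsf, too low to test, had 0 fragments in each control library and its highest value in a combination library, at 0.258 FPKM. Its 3 combination values were 0.0845, 0.170 and 0.258 FPKM. The 8 epithelial markers summed to 4.92 to 5.82 FPKM in controls, 6.45 to 9.50 with nintedanib, 6.80 to 7.16 after irradiation and 11.3 to 13.7 with both.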
